A study of Mus musculus with 4 samples.

Results

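The genes described here encode 9 enzymes that make serine and pass its carbon on through folate, and they were taken by symbol from the 23420 genes counted in each RNA-seq sample of mouse prefrontal cortex (PFC). All 9 were counted, and all 9 were among the 16232 genes with enough counts to be tested. Serine is made from a glycolytic intermediate by phosphoglycerate dehydrogenase (*Phgdh*), phosphoserine aminotransferase (*Psat1*) and phosphoserine phosphatase (*Psph*), a route that in the brain is best known from astrocytes, which supply neurons with serine, also as the precursor of the NMDA receptor co-agonist D-serine. Serine hydroxymethyltransferase then moves a carbon from serine onto tetrahydrofolate. This step and the folate steps after it run in parallel in the mitochondrial matrix (*Shmt2*, *Mthfd2*, *Mthfd1l* and *Aldh1l2*) and in the cytosol (*Shmt1* and *Mthfd1*), and the mitochondrial arm is known for exporting formate and for its induction in growing or stressed cells, in part by the transcription factor ATF4.

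Both groups were PFC punches from C57BL6/J mice that had received an AAV9 vector by injection. The labels describe the 2 control samples as injected with GFP-AAV9, where the study's text names a scrambled shRNA virus, and the 2 *Ash1L* shRNA samples as injected with shRNA_ASH1L-AAV9, directed against *Ash1L*, a histone methyltransferase gene linked to autism. By the study's methods mice were 5 weeks old at injection, the hairpin was driven by a U6 promoter (active in any infected cell type), and each sample pooled punches of 3 mice, while the series description counts 3 knockdown and 2 control mice aged 6 to 8 weeks. The labels call the material a bulk lysate, so infected and uninfected cells of every type in the punch contributed. Total counts ran from 14251190 in control sample 1 to 35764874 in control sample 2, so counting error was largest in control sample 1. With 2 samples in each group the p-values set a group difference against variation among these samples only. The variation of each gene was estimated partly from the other tested genes. All 11 astrocyte and 6 excitatory neuron markers checked were counted. Genes called UP or DOWN (an unadjusted p under 0.05 and at least a 1.2-fold change) were mostly further from the control mean in *Ash1L* shRNA sample 2, in 80.8% of UP and 90.0% of DOWN genes. The targeted gene, *Ash1l*, had 5961 and 7057 normalized counts in the control samples and 5246 and 3345 in the *Ash1L* shRNA samples (log2 fold change -0.60, standard error (SE) 0.22). Reads shared with *Dap3*, which overlaps exonic sequence of *Ash1l* on the opposite strand, cannot be assigned with certainty. Its DOWN call was lost without control sample 1 (-0.71), control sample 2 (-0.48) or *Ash1L* shRNA sample 2 (-0.31).

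Of the 9 enzyme genes, 3 were UP, 1 was DOWN and 5 were neither, where 8.61% of all tested genes were UP and 8.28% were DOWN (16.9% either). The 3 UP genes were *Mthfd2*, *Aldh1l2* and *Mthfd1l*, which all belong to the mitochondrial arm, with fitted changes of 3.17-fold, 2.29-fold and 1.49-fold. The DOWN gene was *Phgdh*, the first enzyme of serine synthesis, at 71.1% of the control level. Neither of the cytosolic genes was called. After Benjamini-Hochberg adjustment over all tested genes, 0 of the 9 passed 0.05 in edgeR's quasi-likelihood test, against 4 at an unadjusted p under 0.05, and 2 passed with DESeq2 (*Mthfd2* and *Aldh1l2*). Across all tested genes, 1 passed in edgeR's test (0.00616% of those tested). The plot of normalized counts by sample shows the members side by side.

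**Figure D1:**
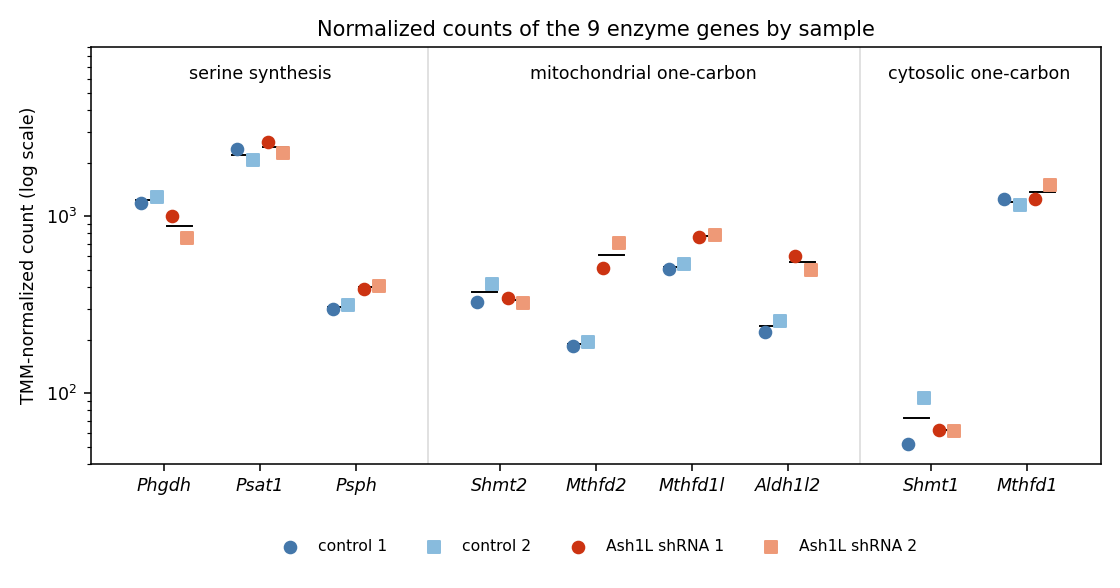
Normalized counts (log scale) of the 9 enzyme genes in each of the 4 samples, grouped by pathway arm; short bars are group means. For *Mthfd2* the control samples lie at 186 and 196 and the *Ash1L* shRNA samples at 508 and 708, whereas *Phgdh* lies lower in both *Ash1L* shRNA samples.

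*Mthfd2* encodes the mitochondrial methylenetetrahydrofolate dehydrogenase and cyclohydrolase, which oxidizes the carbon unit taken from serine. Its gene (ENSMUSG00000005667) lies on the minus strand of mm10 chromosome 6 from 83305691 to 83325908. It had 108 and 282 raw counts in the control samples and 572 and 603 in the *Ash1L* shRNA samples. Normalized for library size, these were 186 and 196 in control and 508 and 708 in *Ash1L* shRNA samples, so the groups did not overlap and the lowest knockdown value stood far above both controls. Over all tested genes both knockdown samples lay above both controls in 26.5% and below them in 26.8%. Group means were 191 ± 6.68 and 608 ± 141 (SD, n = 2 each), and the log2 fold change was 1.67 (SE 0.21). By size of fold change *Mthfd2* ranked 260 among the 16232 tested genes, and by p-value it ranked 12. The adjusted p was 0.207 in edgeR's quasi-likelihood test and 4.24e-07 with DESeq2, and it ran from 4.24e-07 to 0.870 over the 11 alternative fits. It was called UP in all 11 of them, with log2 fold changes from 1.41 to 1.88.

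*Aldh1l2*, the mitochondrial 10-formyltetrahydrofolate dehydrogenase that releases the carbon unit as carbon dioxide with formation of NADPH, was the other member that more than doubled. The gene (ENSMUSG00000020256) lies on chromosome 10 from 83487450 to 83534140. Normalized counts were 221 and 257 in control and 599 and 500.0 in *Ash1L* shRNA samples, again without overlap. Here sample 1 stood further from the control mean than sample 2, by 1.33 against 1.07 on the log2 scale, the reverse of the order in most UP genes and in *Mthfd2* (1.41 and 1.89). The log2 fold change was 1.19 (SE 0.18), with an adjusted p of 0.234 in edgeR's test and 0.000289 with DESeq2 (0.000289 to 0.870 over the 11 alternatives). It was UP in all 11 alternatives, between 1.05 and 1.32. An exon of *D10Wsu102e* overlaps it on the opposite strand. *D10Wsu102e* had 985 to 1545 normalized counts per sample, more than *Aldh1l2*, and was UP itself (log2 fold change 0.40). As the strand setting of the counting is not stated, reads of the shared stretch cannot be assigned with certainty.

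*Mthfd1l*, the mitochondrial formyltetrahydrofolate synthetase that makes the exported formate, was UP by less and with little spread. The gene (ENSMUSG00000040675) lies on chromosome 10 from 3973118 to 4167081. Its normalized counts were 503 and 534 in control and 759 and 785 in *Ash1L* shRNA samples. The groups stood well apart, and the knockdown samples were as close to each other as the controls were. The log2 fold change was 0.57 (SE 0.13), with an adjusted p of 0.250 in edgeR's test and 0.0837 with DESeq2 (0.0370 to 0.870 over the alternatives). It was UP in all 11 alternatives, between 0.54 and 0.61.

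*Shmt2*, which feeds the mitochondrial arm by taking the carbon from serine, was not called. The gene (ENSMUSG00000025403) lies on chromosome 10 from 127517123 to 127522444. Normalized counts were 329 and 416 in control and 344 and 325 in *Ash1L* shRNA samples, values that overlap. The log2 fold change was -0.16 (SE 0.18), and it was 0.019 without control sample 2. An exon of *Ndufa4l2* lies across *Shmt2* on the other strand, with 37.6 to 55.1 normalized counts per sample. The mitochondrial genes therefore did not move as one set, since the enzyme at the entry of the arm had no detectable difference while *Mthfd2*, *Aldh1l2* and *Mthfd1l* after it were UP.

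**Figure D2:**
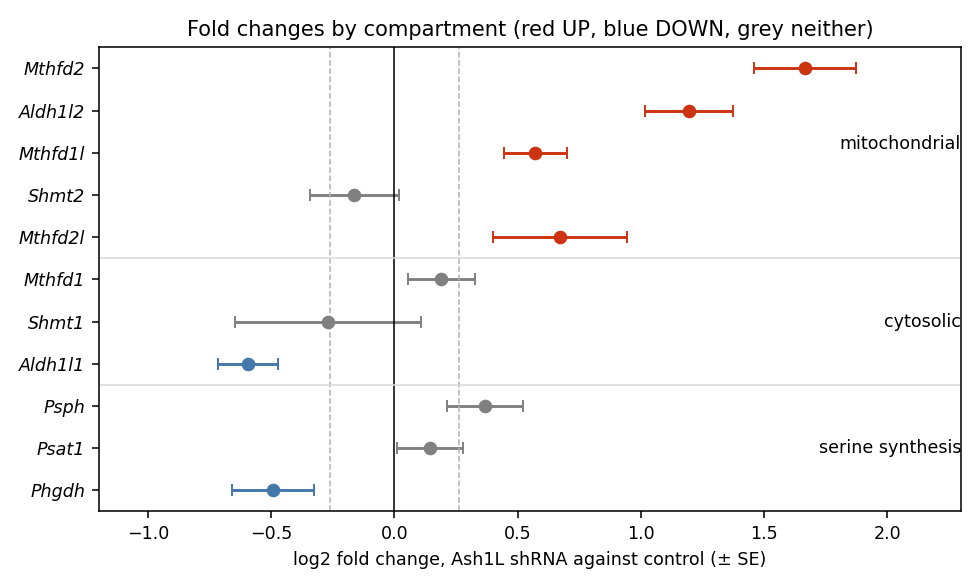
Log2 fold change (x axis) of *Ash1L* shRNA against control with its standard error for the 9 genes and the counterparts *Mthfd2l* and *Aldh1l1*, by compartment; dashed lines mark a 1.2-fold change. *Mthfd2* (1.67), *Aldh1l2* (1.19) and *Mthfd1l* (0.57) lie to the right, *Phgdh* (-0.49) and *Aldh1l1* (-0.59) to the left.

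The cytosolic arm gave 0 calls in its 2 genes, with log2 fold changes of 0.19 and -0.27 and unadjusted p-values above 0.05 in edgeR's test and in DESeq2. *Mthfd1*, a trifunctional enzyme that carries out in the cytosol the reactions split between *Mthfd2* and *Mthfd1l* in mitochondria, lies on chromosome 12 from 76255298 to 76319803 (ENSMUSG00000021048). It had 1251 and 1158 normalized counts in control and 1252 and 1497 in *Ash1L* shRNA samples. Knockdown sample 1 was level with control sample 1 and sample 2 was above, and the log2 fold change was 0.19 (SE 0.14). *Shmt1*, the cytosolic serine hydroxymethyltransferase, lies on chromosome 11 from 60788104 to 60811718 (ENSMUSG00000020534) and was the thinnest measurement, with 30 and 135 raw counts in control and 70 and 52 in *Ash1L* shRNA samples. As normalized counts these were 51.7 and 93.6, and 62.2 and 61.0, so both knockdown samples fell between the controls. By 95% exact Poisson intervals, which cover counting error only, control sample 1 ran from 34.9 to 73.8 normalized counts, a range that holds both knockdown values, and control sample 2 from 78.5 to 111, which lies above both. The control intervals do not overlap, so the controls differed from each other by more than counting error. The log2 fold change of -0.27 had an SE of 0.38 and became 0.25 without control sample 2. An exon of *Smcr8*, itself DOWN (-0.44), overlaps *Shmt1* on the other strand. *Smcr8* had 1231 to 1895 normalized counts per sample, far more than *Shmt1*, and reads of the shared stretch cannot be assigned with certainty.

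Serine synthesis did not move as one unit either. *Phgdh*, which commits the glycolytic intermediate to serine, lies on chromosome 3 from 98313170 to 98339990 (ENSMUSG00000053398). Its normalized counts were 1196 and 1279.5 in control and 1008 and 750.0 in *Ash1L* shRNA samples, with both knockdown samples below both controls and sample 2 the lower. Means were 1238 ± 59.0 and 879 ± 183 (SD, n = 2 each). The log2 fold change was -0.49 (SE 0.17), with an adjusted p of 0.262 in edgeR's test and 0.210 with DESeq2 (0.0156 to 0.870 over the alternatives). The DOWN call was lost without control sample 1 (-0.53), without control sample 2 (-0.45) and without *Ash1L* shRNA sample 2 (-0.30), and kept without *Ash1L* shRNA sample 1 (-0.73).

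*Psat1*, the next enzyme, lies on chromosome 19 from 15904678 to 15947337 (ENSMUSG00000024640). Its normalized counts of 2383 and 2066 in control and 2639 and 2268 in *Ash1L* shRNA samples overlapped, with a log2 fold change of 0.14 (SE 0.13). *Psph*, which releases free serine, lies on chromosome 5 from 129765558 to 129787449 (ENSMUSG00000029446). It had 299.9 and 314 normalized counts in control and 389.9 and 404 in *Ash1L* shRNA samples, which did not overlap. Its log2 fold change of 0.37 (SE 0.16) had an unadjusted p of 0.0536 in edgeR's quasi-likelihood test and was not called. It was UP with library-size scaling (0.41) and with a filter of 10 counts in every sample (0.38). *Cct6a* overlaps exonic sequence of *Psph* on the opposite strand. It had 2780 to 3310 normalized counts per sample, far more than *Psph*, and a log2 fold change of 0.22. *Phgdh* has an annotated processed pseudogene, and how reads with several matches were counted is not stated.

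The astrocyte markers were largely DOWN, as was *Phgdh*. Of the 11 markers, 8 were DOWN and 0 UP, both with edgeR and with DESeq2, and 5 were DOWN without control sample 1. Their median log2 fold change was -0.82 against -0.0027 over all tested genes, from -1.18 in *Aldoc* to 0.11 in *Aqp4*. Their summed normalized counts were 141399.9 and 147796 in control and 113149 and 83876 in *Ash1L* shRNA samples, and none was at 0. *Gfap*, the intermediate filament protein of astrocytes, had a log2 fold change of 0.00071. Lower values were not limited to astrocyte markers, as the 6 excitatory neuron markers had a median log2 fold change of -0.42. In these bulk samples fewer cells of a type and less RNA per cell cannot be told apart. The part of the astrocyte markers in the *Phgdh* difference was not tested. Averaged over *Phgdh*, *Psat1* and *Psph*, the log2 level was 9.89 and 9.88 in control and 9.99 and 9.79 in *Ash1L* shRNA samples. The same average over the astrocyte markers was 12.53 and 12.45 in control and 12.04 and 11.61 in *Ash1L* shRNA samples. The difference between these averages was 0.67 higher in the knockdown samples (-1.94 ± 0.16 against -2.61 ± 0.047, SD, n = 2 each). With medians in place of means it was -0.053, with *Phgdh* the middle serine synthesis gene in every sample and *Acsbg1* or *Gja1* the middle marker. The plot of differences from the control mean shows that *Psat1* and *Psph* stood above most markers in both knockdown samples.

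**Figure D3:**
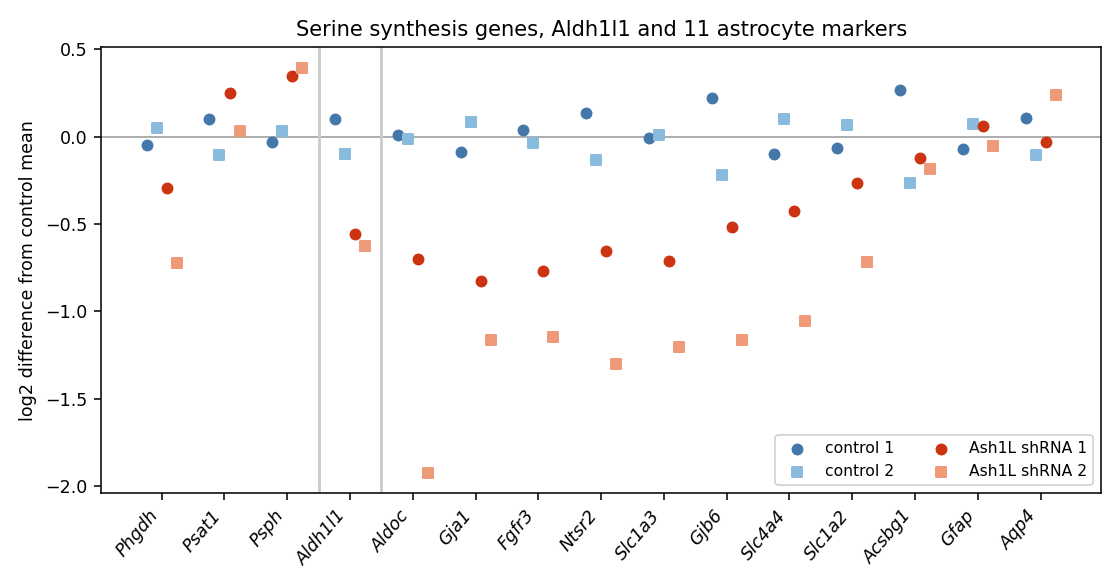
Log2 difference from the control mean in each sample for *Phgdh*, *Psat1*, *Psph*, *Aldh1l1* and 11 astrocyte markers ordered by fold change. In *Ash1L* shRNA sample 2 *Phgdh* lies at -0.72 and *Psph* at 0.39.

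The mitochondrial and cytosolic enzymes were then compared as pairs within each sample, which removes any scaling common to a sample. The log2 ratio of *Mthfd2* to *Mthfd1* was -2.74 and -2.56 in control and -1.30 and -1.08 in *Ash1L* shRNA samples, a difference of 1.46. The ratio of *Mthfd1l* to *Mthfd1* differed less, with -1.31 and -1.12 in control and -0.72 and -0.93 in *Ash1L* shRNA samples, a difference of 0.39. For *Shmt2* to *Shmt1* the values were 2.65 and 2.14 in control and 2.45 and 2.39 in *Ash1L* shRNA samples, which overlap, and the difference of 0.027 turned to -0.23 without control sample 2. The first 2 ratios were apart between the groups, and the *Shmt* pair was not.

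*Aldh1l2* has a cytosolic counterpart, *Aldh1l1*, that is widely used as an astrocyte marker, and these genes were called in opposite directions. *Aldh1l1* (ENSMUSG00000030088, chromosome 6 from 90486427 to 90600203) had 2544 and 2214 normalized counts in control and 1609 and 1539 in *Ash1L* shRNA samples. Its DOWN call (log2 fold change -0.59, SE 0.12) stood in all 11 alternatives. The log2 ratio of *Aldh1l2* to *Aldh1l1* was -3.52 and -3.10 in control and -1.43 and -1.62 in *Ash1L* shRNA samples, a difference of 1.79. *Mthfd2l*, the second mitochondrial gene of the *Mthfd2* type, lies on chromosome 5 from 90931117 to 91021368 (ENSMUSG00000029376). It had 209 and 147 normalized counts in control and 234 and 329 in *Ash1L* shRNA samples and was UP with a log2 fold change of 0.67 (SE 0.27), a call lost without control sample 2 (0.42) or *Ash1L* shRNA sample 2 (0.42). For *Mthfd2* to *Mthfd2l* the log2 ratio was -0.16 and 0.41 in control and 1.12 and 1.10 in *Ash1L* shRNA samples, a difference of 0.99. Of the 5 ratios compared, 4 did not overlap between the groups. At this group size the smallest p of an exact two-sided permutation test is 0.333, which is the value of those 4, and the test gave 1.0 for *Shmt2* to *Shmt1*. Averaged over genes, the mitochondrial minus cytosolic difference in log2 level was 0.17 and -0.022 in control and 0.92 and 0.85 in *Ash1L* shRNA samples, higher by 0.81. The mitochondrial average was higher by 0.82 and the cytosolic one by 0.0056. The cytosolic average was 8.01 and 8.37 in control and 8.14 and 8.25 in *Ash1L* shRNA samples. Its small difference averages fold changes of opposite sign in *Mthfd1* (0.19) and *Shmt1* (-0.27).

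**Figure D4:**
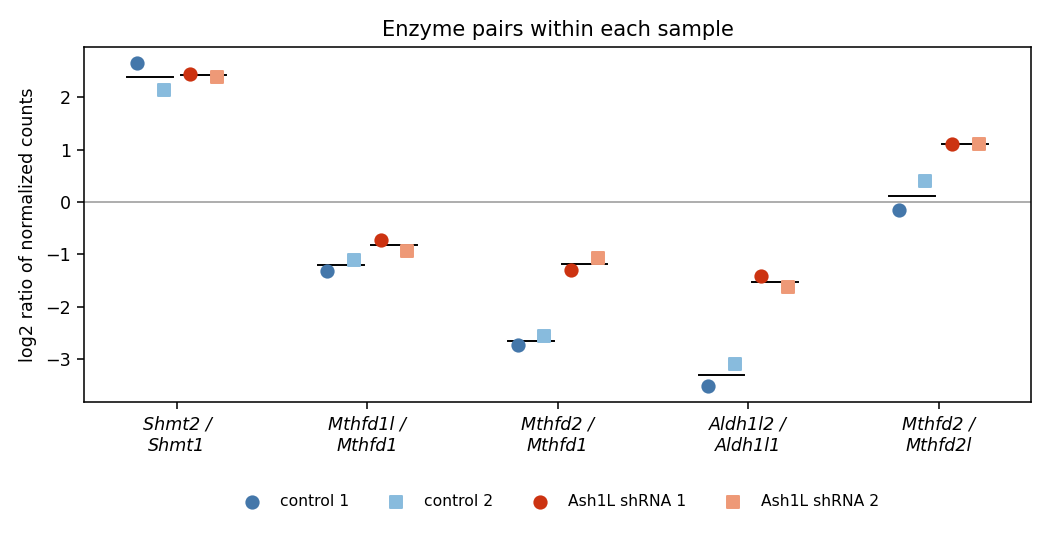
Log2 ratio of normalized counts for 5 enzyme pairs in each of the 4 samples; short bars are group means. The *Mthfd2* to *Mthfd1* ratio lies between -2.74 and -2.56 in control and between -1.30 and -1.08 in *Ash1L* shRNA samples, and the *Shmt2* to *Shmt1* ratio overlaps.

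Levels of different genes were compared per exonic length and library size (FPKM, with exonic lengths from GENCODE). In control samples the order was *Psat1* (21.5 ± 2.17 FPKM), *Phgdh* (20.5 ± 0.976), *Mthfd1* (11.1 ± 0.609), *Shmt2* (4.93 ± 0.813), *Mthfd1l* (4.81 ± 0.202), *Psph* (2.92 ± 0.0959), *Mthfd2* (2.25 ± 0.0787), *Aldh1l2* (1.31 ± 0.142) and *Shmt1* (0.769 ± 0.314; SD, n = 2 each). The neighbours *Psat1* and *Phgdh*, and *Shmt2* and *Mthfd1l*, overlapped in their control samples, and the other neighbours did not. In the *Ash1L* shRNA samples *Mthfd2* stood at 7.17 ± 1.66 FPKM, next after *Mthfd1* and overlapping *Mthfd1l* at 7.16 ± 0.169, and both exceeded *Shmt2* at 4.42 ± 0.174. *Phgdh* (14.5 ± 3.02) overlapped *Mthfd1* (12.7 ± 1.60), whereas *Psat1* stood above it at 23.7 ± 2.54. *Aldh1l2* (3.01 ± 0.382) again stood next above *Shmt1* (0.652 ± 0.00854). Its upper neighbour was *Psph* (3.77 ± 0.0929), in place of *Mthfd2* in control samples.

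Reference promoters of *Mthfd2* and *Mthfd1l*, which were UP, and of *Phgdh*, which was DOWN, are shown because they belong to the members with calls in opposite directions. They are the 250 bases before the RefSeq start of each gene (GRCm38.p6, the assembly of mm10), written 5′ to 3′ on the gene's strand. Capitals mark the CCAAT box (CCAAT) and the GC box (GGGCGG) on either strand. RefSeq starts differ from the edges of the GENCODE spans given above. The *Mthfd2* window lies inside the GENCODE span of its gene, and the *Phgdh* window overlaps the edge of its span.
Mthfd2 promoter, chr6:83317605-83317854, - strand: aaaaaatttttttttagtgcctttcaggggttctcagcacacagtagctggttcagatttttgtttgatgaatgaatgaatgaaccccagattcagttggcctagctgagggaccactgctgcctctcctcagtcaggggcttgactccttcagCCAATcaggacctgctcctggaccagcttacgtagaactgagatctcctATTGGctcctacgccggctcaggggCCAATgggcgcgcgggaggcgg
Mthfd1l promoter, chr10:3972825-3973074, + strand: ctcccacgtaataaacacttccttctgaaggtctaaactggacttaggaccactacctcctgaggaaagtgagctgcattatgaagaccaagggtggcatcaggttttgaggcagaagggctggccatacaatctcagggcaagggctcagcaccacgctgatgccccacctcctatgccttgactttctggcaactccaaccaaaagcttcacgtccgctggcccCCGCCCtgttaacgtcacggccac
Phgdh promoter, chr3:98339970-98340219, - strand: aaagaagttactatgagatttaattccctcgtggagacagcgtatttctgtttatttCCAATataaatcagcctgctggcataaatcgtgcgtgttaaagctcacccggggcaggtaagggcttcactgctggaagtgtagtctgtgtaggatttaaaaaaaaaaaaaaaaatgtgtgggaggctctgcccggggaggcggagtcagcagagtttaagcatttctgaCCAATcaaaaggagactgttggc
The *Mthfd2* window held CCAAT at 3 places and GGGCGG at none, and *Mthfd1l* held GGGCGG once and no CCAAT. *Phgdh* held CCAAT at 2 places. Promoters were matched for 8 of the 9 members, all but *Aldh1l2*, which was UP. Of these 8 genes, 6 held CCAAT and 5 held GGGCGG, against 33.8% and 32.7% of all 32851 promoter windows of this length. The members were counted by gene and the background by window, so the shares have unlike units. *Psat1* held CCAAT and GGGCGG in different windows. The core of the composite element bound by C/EBP and ATF factors (TGATGNAA, either strand) was in 0 of the 8 genes' windows and in 3.45% of all windows, and the cyclic AMP response element (TGACGTCA) in 0 and 1.55%. The motifs do not overlap each other in the shown windows, and these matches describe letters in this window only.

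ATF4 and genes known as its targets were examined as a list, since several of the enzymes are among the known targets. Of 22 tested genes 13 were UP, 1 was DOWN and 8 were neither (median log2 fold change 0.45), but 7 were UP without control sample 1 and 7 without control sample 2. *Atf4* itself (ENSMUSG00000042406, chromosome 15 from 80255184 to 80257541) had 2330.0 and 2381 normalized counts in control and 3111 and 3831 in *Ash1L* shRNA samples. It was UP with a log2 fold change of 0.56 (SE 0.14), also in all 11 alternatives. The most abundant called targets were *Vldlr*, a lipoprotein receptor (0.45), *Asns*, asparagine synthetase (0.35), the cationic amino acid transporter *Slc7a1* (0.56), the large neutral amino acid transporter *Slc7a5* (0.45) and the cystine transporter *Slc7a11*, which was DOWN (-0.75). Leaving out a control sample removed some of these calls, namely *Asns* (0.28), *Slc7a1* (0.48) and *Slc7a5* (0.45) without sample 1, and *Vldlr* (0.37), *Slc7a5* (0.46) and *Slc7a11* (-0.52) without sample 2. The *Slc7a5* call was also lost without *Ash1L* shRNA sample 2 (0.27). The list ran from *Slc7a11* to *Gdf15*, a secreted stress-response factor with 6.89 and 6.24 normalized counts in control and 25.8 and 106 in *Ash1L* shRNA samples, whose log2 fold change of 3.30 (SE 0.82) was not called without control sample 2 (3.20).

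Among the other folate enzymes and carriers, 2 of 15 tested genes were UP, 1 was DOWN and 12 were neither (median log2 fold change 0.20). The UP count was 1 without control sample 1 or *Ash1L* shRNA sample 2, 0 without control sample 2, and 4 without *Ash1L* shRNA sample 1. Besides *Mthfd2l* and *Aldh1l1* the called gene was *Ggh*, the hydrolase that trims folate polyglutamates, with 212 and 230.2 normalized counts in control and 339 and 319 in *Ash1L* shRNA samples. Its log2 fold change was 0.57 (SE 0.17), and the call was lost without control sample 1 (0.53) or control sample 2 (0.63). In the glycine cleavage system, which also charges folate with a carbon in mitochondria, 1 of 4 genes was called. This was *Gldc*, the glycine decarboxylase, with 1109.9 and 811 normalized counts in control and 693 and 579 in *Ash1L* shRNA samples. Its log2 fold change was -0.59 (SE 0.19) and called DOWN, but not without control sample 1 (-0.34) or *Ash1L* shRNA sample 2 (-0.46). The methionine cycle, which takes methyl groups from cytosolic folate, had 0 of 7 tested genes at an unadjusted p under 0.05 in edgeR's test and 0 of 8 with DESeq2, with a median of 0.09 and a range from -0.23 to 0.51.

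Of 15 tested genes for transport and use of serine and glycine, 3 were UP and 2 were DOWN (median log2 fold change 0.18), and without control sample 2 these counts were 1 and 0. *Slc1a4*, the neutral amino acid transporter ASCT1 that carries serine, had 2061 and 1977 normalized counts in control and 2845 and 3630.4 in *Ash1L* shRNA samples. It was UP with a log2 fold change of 0.68 (SE 0.15) and kept that call with each sample left out. *Slc7a10*, the transporter Asc-1 that carries small neutral amino acids including D-serine, was at 543 and 588 in control and at 396 and 295 in *Ash1L* shRNA samples. Its log2 fold change of -0.71 (SE 0.19) was DOWN except without control sample 2 (-0.65). *Slc1a5*, the related transporter ASCT2, was DOWN at -0.88 (SE 0.25) but not without control sample 1 (-0.83) or control sample 2 (-0.93). The glycine transporter *Slc6a9* (0.35) and the neutral amino acid transporter *Slc38a2* (0.59) were UP. *Slc6a9* was not called without control sample 1 (0.41), control sample 2 (0.28) or *Ash1L* shRNA sample 1 (0.32), nor with DESeq2 (0.35), and *Slc38a2* was not called without control sample 1 (0.74), control sample 2 (0.46) or *Ash1L* shRNA sample 2 (0.23).

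**Figure D5:**
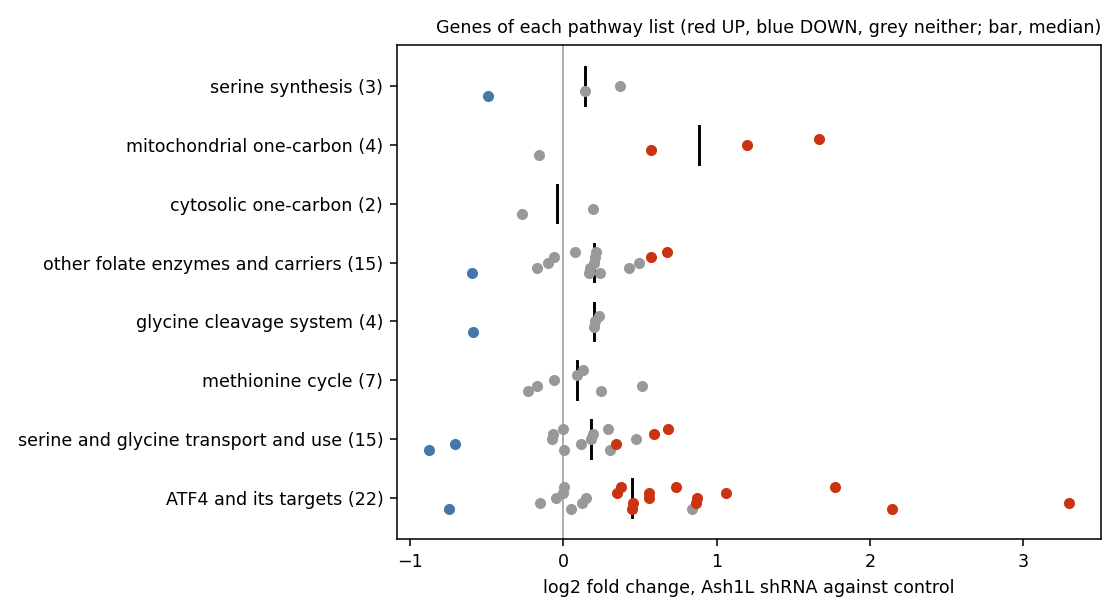
Log2 fold change (x axis) of each tested gene in the 3 enzyme groups and in 5 further lists, with the number tested in parentheses; red points are UP, blue points DOWN, grey points neither, and bars are medians. The mitochondrial one-carbon median lies at 0.88 and the ATF4 list at 0.45.

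Genes whose pattern over the 4 samples was closest to that of a member were found by the root mean square difference of log2 deviations from the control mean, among 12454 genes with a mean normalized count of at least 100. For *Mthfd2* the nearest was *Pmaip1*, which encodes the BH3-only apoptosis protein Noxa, at a distance of 0.10. It stood 1.40 and 1.75 above the control mean in *Ash1L* shRNA samples 1 and 2, where *Mthfd2* stood at 1.41 and 1.89. Then came *Gm13889* (0.20), the imprinted gene *Peg10* (0.22), the water channel gene *Aqp1* (0.23) and *Ccdc155* (0.23). The genes nearest to *Phgdh* lay at smaller distances, with *Thrb*, a thyroid hormone receptor, at 0.0079 and *Nlgn3*, a synaptic adhesion protein, at 0.014. *Prickle1*, the potassium channel gene *Kcnh1* and *Il1rapl1* lay from 0.015 to 0.017. Changes as large as that of *Phgdh* were also more common. Of all tested genes 8.75% had a lower fold change than *Phgdh*, and 1.60% a higher one than *Mthfd2*. A likeness over 4 samples is a description and carries no test.

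Markers of the other cell types that a punch could hold were examined as well. The 7 proliferating cell markers had summed normalized counts of 427 and 1298 in control and 1128 and 1204 in *Ash1L* shRNA samples. None was at 0 in any sample, and 0 had an unadjusted p under 0.05 in edgeR's test or with DESeq2, though 3 were UP without control sample 2. The knockdown sums lay between those of the controls. T cell markers were lower, with 4 of 5 DOWN (3 with DESeq2) and sums of 226 and 379 in control against 81.7 and 64.6 in *Ash1L* shRNA samples. All 3 B cell markers were DOWN, with sums of 96.5 and 194 against 12.4 and 8.22. Among 5 monocyte and macrophage markers 2 were DOWN, and the sums were 2335 and 2604 against 1978 and 1012. The 6 microglia markers gave 0 calls with an unadjusted p under 0.05 in edgeR's test or DESeq2, but 5 were DOWN without *Ash1L* shRNA sample 1 and 3 UP without sample 2. Their sum was 16939 in *Ash1L* shRNA sample 1 and 7254 in sample 2, on both sides of the controls at 14080.2 and 14509. Excitatory neuron markers were DOWN in 3 of 6 (in 6 without *Ash1L* shRNA sample 1, in 1 without any other sample), with sums of 66596 and 78252 against 61503 and 49827. All 6 excitatory neuron markers lay below both controls in both knockdown samples, as did 26.8% of all tested genes. Interneuron markers were DOWN in 2 of 6. Their median log2 fold change was -0.31, and from -0.54 to -0.18 with each sample left out in turn. Among 3 oligodendrocyte precursor markers 1 was UP (*Pdgfra*, 0.27) and all 3 had fold changes above 0, with sums of 2875 and 2818 in control against 3306 and 3628 in *Ash1L* shRNA samples. The call was lost with DESeq2 and without either control sample or *Ash1L* shRNA sample 2, while 2 were UP without *Ash1L* shRNA sample 1. Of 5 fibroblast and mural markers 1 was UP (*Lum*, 0.72) and all 5 were above 0, with sums of 2163 and 3278 against 3146 and 3218, and none was called with DESeq2, without control sample 1 or without *Ash1L* shRNA sample 1. The 6 oligodendrocyte and 5 endothelial markers gave 0 calls, also at an unadjusted p under 0.05 alone, in edgeR's test and with DESeq2, with medians of -0.26 and 0.06, though 3 oligodendrocyte markers were DOWN without *Ash1L* shRNA sample 1. The part of these cell types in the enzyme differences was not tested.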

How the data were processed

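Total RNA of 4 PFC samples was stripped of ribosomal RNA before stranded sequencing. The deposited values are unnormalized counts for each gene symbol, which the authors obtained with featureCounts after RNA STAR alignment of read pairs to mm10. The labels instead name Cutadapt and TopHat2. Strand and multiple-mapping settings are not given in the sources used here.

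Groups were taken from the sample titles. Genes were filtered with filterByExpr, scaled by TMM and tested with edgeR 4.0.16 (R 4.3.3; robust glmQLFit, glmQLFTest), with Benjamini-Hochberg adjustment over 16232 genes. UP and DOWN used the thresholds of the study, an unadjusted p under 0.05 and a 1.2-fold change. Normalized counts are counts divided by the effective library size relative to its mean, and log2 levels used a pseudocount of 1. An SE is the size of the log2 fold change over the root of the F statistic. The test was run on counts simulated from the dispersions fitted to these data. That run checks the code only and cannot show that the calls are right. Replicates differed by more than counting error (chi-square per degree of freedom 14.8 in control and 42.3 in *Ash1L* shRNA samples). Alternatives were DESeq2 1.42.0, RLE and library-size scaling, 2 other filters, a replicate block and each sample left out. A crossed block was chosen after seeing the data. These fits all re-use the same 4 samples and are not independent repeats. Each omission leaves a group without replication. Named genes outside the members were called genes of each pathway list, at most 6 by mean count, the counterparts *Aldh1l1*, *Mthfd2l* and *Atf4*, the 5 nearest genes to *Mthfd2* and to *Phgdh*, ends of ranges and genes behind small counts. *Gfap* and the genes overlapping members were named after their values were seen, and the promoter motifs were chosen then too. The members and lists were chosen with earlier results of these data known. Exonic lengths and positions came from GENCODE vM21 (mm10) and promoters from RefSeq (GRCm38.p6).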

Additional observations from a re-analysis of the deposited data

How the results depend on the processing

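Over the 11 alternative fits *Mthfd2*, *Aldh1l2* and *Mthfd1l* were UP in each, so the count of UP members was 3, or 4 where *Psph* joined them (library-size scaling and the filter of 10 counts in every sample). On omitting samples one by one, the members DOWN numbered from 0 to 1, all genes UP from 423 to 2368 and all genes DOWN from 306 to 2718. Over the same omissions the log2 fold change of *Shmt2* ran from -0.31 to 0.019, that of *Shmt1* from -0.59 to 0.25 and the difference in the *Shmt2* to *Shmt1* ratio from -0.23 to 0.28, each changing sign without control sample 2, and *Aqp4* ran from -0.034 to 0.23, changing sign without *Ash1L* shRNA sample 2. With medians in place of means the mitochondrial minus cytosolic difference was 0.94, and the serine synthesis minus astrocyte marker difference was -0.053. On omitting samples the latter ran from 0.55 to 0.78 and the former from 0.72 to 0.91.

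Adjusted p-values depended on the fit. An adjusted p under 0.05 was reached by 420 genes with DESeq2, 34 without the low-count filter, 2502 without *Ash1L* shRNA sample 1, 36 without *Ash1L* shRNA sample 2, 16 with the pairing crossed, and 0 without either control sample or with the replicate block, and by 2, 2, 4, 2, 0 and 0 of the members in these fits. The cause was not tested. The sample numbers are not stated to pair mice, so they were not taken to pair the samples. Deviations of same-numbered samples correlated negatively (-0.10 across 16232 genes). That correlation rests on a single sample difference in each group and cannot decide whether samples were paired. With the replicate number as a block 1052 genes were UP and 1020 DOWN, with 3 and 1 among the members, the *Mthfd2* log2 fold change had an unadjusted p of 0.000336 in edgeR's test, and *Mthfd2l* (0.67), *Asns* (0.35), *Slc38a2* (0.56) and *Slc6a9* (0.34) lost their calls. With the pairing crossed, added after that correlation was seen, the counts were 1541 and 1736. *Shmt1* had the largest SE of the members (0.38).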
